A study of Mus musculus with 16 samples.

Results

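The 7 genes described here encode subunits of the GABA-A receptor, the chloride channel through which GABA gives fast inhibition in the forebrain. They were taken by name, but with earlier results of these data known. They are the alpha subunits Gabra2, Gabra3, Gabra4 and Gabra5, the beta subunits Gabrb1 and Gabrb2, and the delta subunit Gabrd. Each matched 1 of the 31469 entries that the RNA-seq tables list, which hold 19 GABA-A subunit genes in all. The 16 libraries came from YFP+ neurons sorted by hand from YFP-H mice (B6.Cg-Tg(Thy1-YFP)HJrs/J), males of postnatal day 60 to 80. In all groups the mice drank 0.5% saccharin for 30 min. The conditioned taste aversion (CTA) groups were then injected i.p. with 0.15 M lithium chloride, which causes malaise, and the taste control groups with saline, both at 2% of body weight, and neurons were collected 4 hr after training. For each treatment there were 4 libraries from the basolateral amygdala (BLA) and 4 from the gustatory cortex (GC), n = 4/group. In this strain the Thy1 promoter drives YFP in only some of the excitatory neurons, each library is a pool of neurons, and its RNA was amplified before sequencing.

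GABA-A receptors are pentamers, and most hold alpha and beta subunits together with a gamma or a delta subunit. GABA binds where an alpha subunit meets a beta subunit, so both kinds are needed for a working channel. Receptors with the alpha 2 subunit are found at synapses and at the axon initial segment, and those with alpha 3 mostly at synapses. Receptors with alpha 5, and those that pair alpha 4 with delta, lie largely outside synapses and carry a tonic current at low levels of GABA.

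Levels are in TPM, transcript abundance corrected for transcript length, and every library adds up to 1000000 TPM. BLA and GC values stand in separate tables with the same entries, so a comparison of regions rests on that scaling within each library. The sources used here name no batch, and a batch shared by all libraries of a region cannot be told apart from the region. TPM keeps no counts, and library depths are therefore unknown. Transcripts of excitatory neurons were high in both regions, with the vesicular glutamate transporter Slc17a7 at 712 ± 56.9 TPM in the BLA and 879 ± 70.7 TPM in the GC (SD, n = 8). They were not equal, since 8 genes of forebrain projection neurons summed to 2149 to 2883 TPM in the BLA and 3098 to 3827 TPM in the GC. At a limma adjusted p under 0.05, 5 of the 8 were lower in the BLA and 0 higher, against 15.2% and 4.12% of all genes. Rspo2, a marker of BLA principal cells, averaged 79.6 TPM in the BLA and 18.9 TPM in the GC. The paper describes the GC neurons labeled in this strain as layer 5 pyramidal neurons. Genes of cortical layer 5 neurons, 5 found of 6, summed to 778 to 885 TPM in the BLA and 528.5 to 674 TPM in the GC. That sum includes Etv1, which is also on the list of amygdala projection neurons. All 5 genes of that list were higher in the BLA at a limma adjusted p under 0.05. Of the layer 5 genes, Etv1 was higher by this rule, 1 was lower and 3 were neither. Of all genes tested 4.12% were higher and 15.2% lower. The layer of the GC neurons was not tested. A difference between regions is also one between these classes of neuron. The libraries of the regions also differed in general respects. Between 15850 and 17202 entries were above 0 in BLA libraries and 17982 to 18340 in GC libraries, and 12606 to 13789 against 14359 to 14830 reached 1 TPM. Thy1, whose promoter drives YFP in this strain, took 64127 to 89098 of the 1000000 TPM in the BLA and 26938 to 53946 in the GC. None of these ranges overlapped between the regions. The 10 most abundant entries took a median of 12.3% and 9.89% of a library's TPM, with ranges that overlapped.

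The subunit mix differed between BLA and GC neurons. Gabra2 was the most abundant of the 7 in the BLA, at 153 ± 32.0 TPM, and Gabrb2 in the GC, at 183 ± 57.9 TPM (SD, n = 8). In the BLA, Gabra2 and Gabra3 (146 ± 40.2 TPM) were followed by Gabrb2 (95.03 ± 25.2), Gabra5 (60.9 ± 23.4), Gabrb1 (51.8 ± 18.99), Gabra4 (47.5 ± 9.29) and Gabrd (7.56 ± 3.70). In the GC the order was Gabrb2, Gabra5 (172 ± 24.3), Gabra3 (121 ± 23.8), Gabrb1 (67.4 ± 12.7), Gabra4 (59.0 ± 17.8), Gabra2 (54.5 ± 9.93) and Gabrd (49.7 ± 9.61). Neighbours in these orders differed by less than the larger of their SDs except Gabra3 and Gabrb2, Gabrb2 and Gabra5, and Gabra4 and Gabrd in the BLA, and Gabra5 and Gabra3, and Gabra3 and Gabrb1, in the GC. Among the entries with a mean of at least 1 TPM, Gabra2 ranked 1129th of 14610 in the BLA but 3487th of 15278 in the GC, and Gabrd ranked 9953rd and 3786th. In pools of cells, fewer cells that express a gene and less RNA per cell cannot be told apart.

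**Figure D1:**
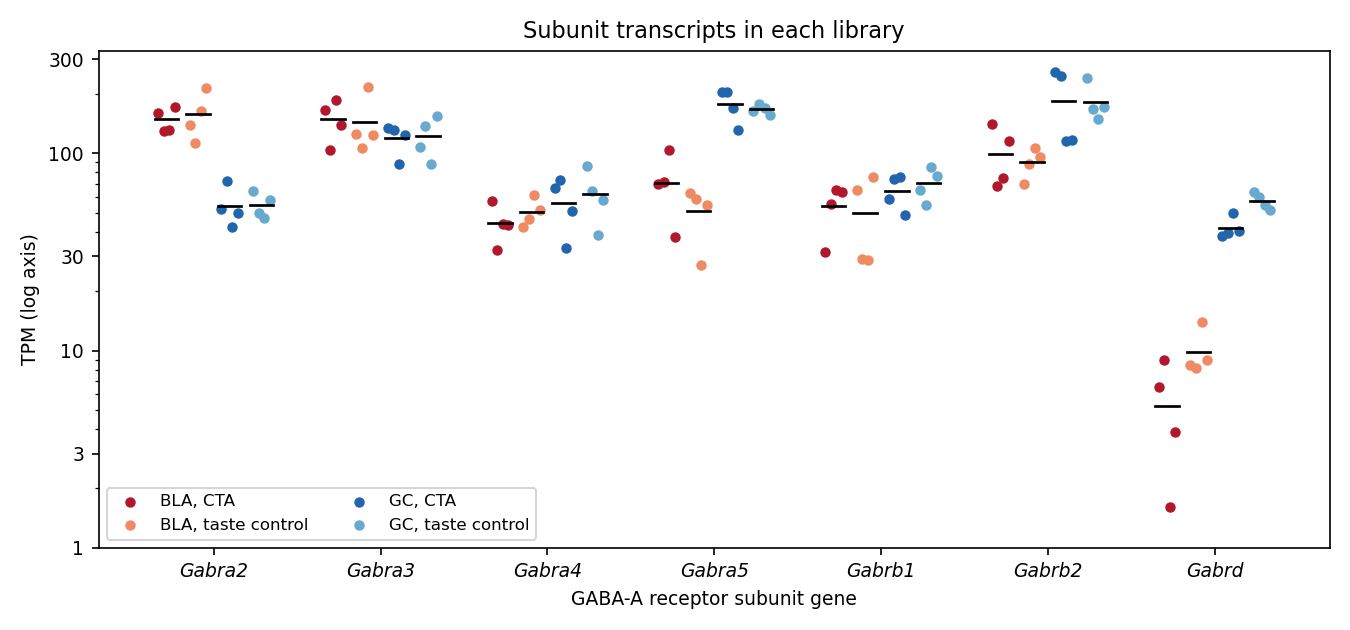
Level of each subunit transcript in TPM (log axis) in each of the 16 libraries. Points are libraries, colored by region and training, and bars are means of 4 libraries. BLA points lie above GC points for Gabra2, and below them for Gabra5 and Gabrd, with no overlap.

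Regions were compared with limma on log2(TPM + 1) over 15191 genes whose mean reached 1 TPM. The fit held the 4 group means, and the region difference was averaged over the training groups. After Benjamini-Hochberg adjustment, a gene was called at an adjusted p under 0.05. Of the 7 subunits, 4 were called, Gabra2 higher in the BLA and Gabra5, Gabrb2 and Gabrd lower. Of all genes tested 19.3% were called, 4.12% higher in the BLA and 15.2% lower, with a median difference of -0.23. The values of Gabra2, Gabra5 and Gabrd did not overlap between the 8 BLA and the 8 GC libraries, which held for 5.91% of all genes. Under median-ratio scaling and under quantile normalization the same 4 subunits were called in the same directions, whereas the split over all genes moved from 626 higher and 2307 lower to 1140 and 1423, and to 1058 and 1387.

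Gabra2 transcript was 2.81 times as abundant in the BLA as in the GC by mean TPM. In BLA libraries it reached 161, 130.1, 131 and 171 TPM after CTA and 139.7, 112, 165 and 215 TPM in taste controls. In GC libraries it reached 52.0, 72.5, 42.2 and 50.1 TPM after CTA and 64.3, 49.7, 47.0 and 58.0 TPM in taste controls. Thus the lowest BLA library stood above the highest GC library, whatever the training. The log2 difference was 1.47 (SE 0.16, 95% interval 1.14 to 1.79, limma adjusted p = 1.71e-06), or 1.70 above the median of all genes. Relative to that median, Gabra5 stood at -1.34, Gabrb2 at -0.69 and Gabrd at -2.46. An exact two-sided permutation test of the mean TPM, with regions permuted within each training group, gave p = 0.000408, the smallest that its 4900 arrangements allow.

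Gabra5 ran the other way. Its transcript measured 70.1, 71.3, 104 and 37.6 TPM in the BLA after CTA and 63.1, 58.8, 27.1 and 54.6 TPM in taste controls. GC libraries gave 204, 205, 169.5 and 131 TPM after CTA and 163, 179, 170.3 and 157 TPM in taste controls. Every GC library was above every BLA library, with a log2 difference (BLA minus GC) of -1.57 (SE 0.20, 95% interval -1.99 to -1.14, limma adjusted p = 1.85e-05). The exact permutation p was again 0.000408. The spread in the BLA was wide, with a coefficient of variation of 38.4% against 14.1% in the GC.

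The other alpha subunits, Gabra3 and Gabra4, were not called between regions. Gabra3 ranged from 104 to 217 TPM in the BLA (median 132) and from 88.5 to 155 TPM in the GC (median 127), a log2 difference of 0.25 (SE 0.17, 95% interval -0.11 to 0.62, limma adjusted p = 0.344). Gabra4, the usual partner of delta, ranged from 32.4 to 61.8 TPM in the BLA and from 33.1 to 86.3 TPM in the GC, a difference of -0.27 (SE 0.20, 95% interval -0.69 to 0.15, limma adjusted p = 0.391). For both genes most libraries of the regions overlapped, and the intervals leave room for differences of either sign.

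Of the beta subunits, Gabrb2 was lower in the BLA and Gabrb1 was not called. Gabrb2 measured 140.2, 67.9, 74.9 and 116 TPM in the BLA after CTA and 70.3, 87.8, 107 and 96.2 TPM in taste controls. In the GC it measured 257, 247, 115 and 117 TPM after CTA and 242, 167, 149.5 and 172 TPM in taste controls. The regions overlapped through the CTA libraries, in which the GC values fell into a high and a low pair. Over all 16 libraries the log2 difference was -0.92 (SE 0.20, 95% interval -1.35 to -0.49, limma adjusted p = 0.00347), with an exact permutation p of 0.00204. Gabrb1 ranged from 28.9 to 75.6 TPM in the BLA and from 48.6 to 85.4 TPM in the GC, with a difference of -0.45 (SE 0.23, 95% interval -0.92 to 0.03, limma adjusted p = 0.188). Within the BLA its values fell into 3 libraries between 28.9 and 31.5 TPM and 5 between 55.4 and 75.6 TPM, and both training groups had libraries on either side. Gabra4 and Gabrb1 overlap at their starts by 196 bases on opposite strands, of which 46 are exonic in both. Reads there could be split between them, but the 46 bases are a small part of the 6083 exonic bases of Gabra4 and 13838 of Gabrb1.

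The delta subunit gene Gabrd showed the widest gap of the 7. BLA libraries held 6.54, 9.0, 1.61 and 3.87 TPM after CTA and 8.43, 8.17, 13.9 and 8.91 TPM in taste controls. GC libraries held 38.1, 39.6, 49.95 and 40.3 TPM after CTA and 63.6, 59.8, 54.4 and 51.8 TPM in taste controls. The highest BLA library was far below the lowest GC library. The log2 difference was -2.70 (SE 0.25, 95% interval -3.22 to -2.17, limma adjusted p = 3.30e-07), a level 6.49-fold lower in the BLA on the log2(TPM + 1) scale, with an exact permutation p of 0.000408. The mean ratio of Gabra2 to Gabrd within a library was 28.9 ± 23.7 in the BLA (11.8 to 81.6) and 1.14 ± 0.342 in the GC (0.830 to 1.83; SD, n = 8). The BLA mean was raised by libraries with little Gabrd, above all CTA library 3 at 1.61 TPM. That of Gabra2 to Gabra4 was 3.28 in the BLA and 0.970 in the GC.

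**Figure D2:**
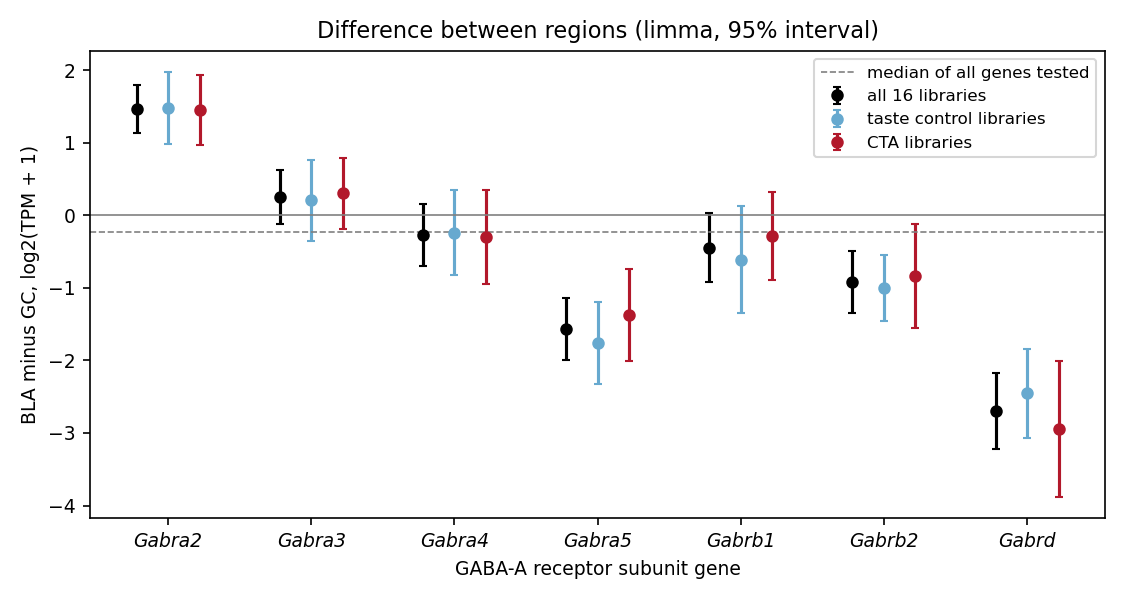
Difference between regions (BLA minus GC, log2(TPM + 1)) of each subunit over all 16 libraries and within each training group, with 95% intervals from limma; the dashed line is the median of all genes tested over all 16 libraries. Gabra2 lies above 0 and Gabra5, Gabrb2 and Gabrd lie below it in each of the 3 fits.

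The region differences were also tested within each training group, 4 libraries against 4, where an exact permutation test cannot go below 0.0286. In taste controls the same 4 subunits were called (7.97% of all genes, 1.83% higher and 6.15% lower in the BLA), with log2 differences of 1.48 for Gabra2 (limma adjusted p = 0.00226), -1.76 for Gabra5 (0.00157), -1.001 for Gabrb2 (0.0115) and -2.45 for Gabrd (0.000320). Their values did not overlap between the regions, as for 16.1% of all genes, and each had an exact permutation p of 0.0286. After CTA 3 were called (6.59% of all genes, 1.71% higher and 4.88% lower in the BLA), Gabra2 at 1.45 (limma adjusted p = 0.00205), Gabra5 at -1.37 (0.0156) and Gabrd at -2.94 (0.00156), and the values of these 3 did not overlap (14.6% of all genes). Gabrb2 differed there by -0.84 (limma adjusted p = 0.167, exact permutation p = 0.143). Some of these calls were near the threshold. Without GC CTA library 1 or 2 the Gabra5 difference after CTA was -1.30 in both cases, with limma adjusted p of 0.0593 and 0.0580, and with no trend in the variance it was 0.0525. For Gabrb2 in taste controls the limma adjusted p was 0.0529 with no trend and 0.0512 with the replicate number as a block.

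Seen as shares of the summed TPM of the 7, the mix turned from Gabra2 and Gabra3 in the BLA to Gabrb2 and Gabra5 in the GC. Gabra2 took 27.2% ± 3.71 in the BLA and 7.72% ± 0.836 in the GC, and Gabra5 11.1% ± 4.32 and 24.5% ± 2.86 (SD, n = 8). Gabrd took 1.38% ± 0.672 and 7.18% ± 1.64. The ranges of these 3 shares did not overlap, with 21.7% to 34.3% against 6.42% to 8.92% for Gabra2, 4.37% to 17.2% against 20.6% to 29.5% for Gabra5, and 0.265% to 2.25% against 4.70% to 8.70% for Gabrd. Gabrb2 took 16.9% ± 3.49 in the BLA and 25.4% ± 4.48 in the GC, and Gabra3 25.8% ± 4.87 and 17.2% ± 3.25, with ranges that overlapped. Gabra4 (8.45% ± 1.26 and 8.23% ± 1.68) and Gabrb1 (9.30% ± 3.36 and 9.72% ± 2.42) took nearly equal shares in both regions. Shares add up to a fixed total, so they are not independent of each other, and no test was made of them.

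**Figure D3:**
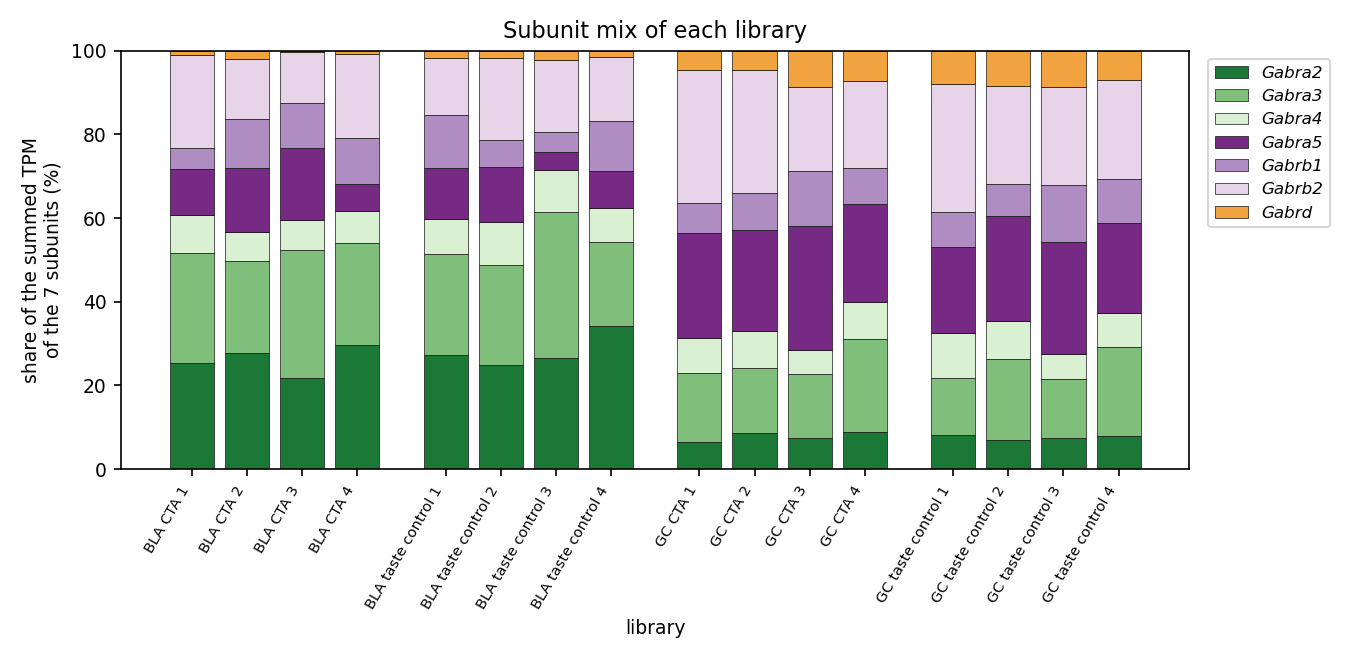
Share of each subunit gene in the summed TPM of the 7 (%), with 1 bar per library, by region and training. Gabra2 takes 21.7% to 34.3% of each BLA bar and 6.42% to 8.92% of each GC bar, and Gabra5 takes more than Gabra2 in each GC bar.

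Among the 4 alpha subunits alone, Gabra2 took 37.7% ± 6.09 in the BLA and 13.4% ± 1.45 in the GC, and Gabra5 15.2% ± 5.71 and 42.6% ± 5.41. The ratio of Gabra5 to Gabra2 within a library was 0.165 to 0.795 in the BLA and 2.53 to 4.02 in the GC, so Gabra2 exceeded Gabra5 in every BLA library and Gabra5 exceeded Gabra2 in every GC library. The summed level of the 7 was 562 ± 73.7 TPM in the BLA (450 to 633) and 707 ± 107 TPM in the GC (562 to 842), and these ranges overlapped. Single libraries stood out in their mix. BLA taste control 3 had the highest share of Gabra3 (35.0%) and the lowest of Gabra5 (4.37%), while BLA CTA 3 had the highest BLA share of Gabra5 (17.2%) and the lowest of Gabrd (0.265%) and Gabra2 (21.7%).

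To show the promoter sequences of genes that differed in opposite directions between the regions, the 250 bases before the annotated start are given for Gabra2, higher in the BLA, and for Gabra5 and Gabrb2, lower in the BLA. They are RefSeq sequences of GRCm38.p6, at chr5:71095850-71096099 (minus strand) for Gabra2, chr7:57510060-57510309 (minus strand) for Gabra5 and chr11:42420190-42420439 (plus strand, the first of 3 annotated starts) for Gabrb2. Capitals mark CG pairs, each written 5′ to 3′.
Gabra2: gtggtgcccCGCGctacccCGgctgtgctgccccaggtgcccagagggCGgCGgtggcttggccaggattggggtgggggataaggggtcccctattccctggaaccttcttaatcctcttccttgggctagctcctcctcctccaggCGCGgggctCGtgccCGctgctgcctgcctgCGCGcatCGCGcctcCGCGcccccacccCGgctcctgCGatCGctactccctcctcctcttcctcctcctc
Gabra5: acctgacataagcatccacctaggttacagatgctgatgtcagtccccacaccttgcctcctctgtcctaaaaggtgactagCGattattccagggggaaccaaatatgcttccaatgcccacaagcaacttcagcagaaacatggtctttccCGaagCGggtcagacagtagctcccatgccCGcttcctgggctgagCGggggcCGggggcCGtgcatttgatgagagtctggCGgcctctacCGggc
Gabrb2: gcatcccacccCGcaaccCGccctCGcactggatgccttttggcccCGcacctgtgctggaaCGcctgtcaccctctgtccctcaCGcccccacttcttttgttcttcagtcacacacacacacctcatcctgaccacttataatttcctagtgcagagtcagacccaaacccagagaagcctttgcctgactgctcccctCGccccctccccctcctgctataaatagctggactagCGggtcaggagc
The Gabra2 window held 18 CG pairs, a number reached by 21.7% of the 32851 windows of the same length before annotated starts. Gabra5 held 9, reached by 40.3%, and Gabrb2 held 8, reached by 43.0%, against a median of 6 over all windows. Members not called between regions varied as widely. Gabrb1 held 18 and 6 before its 2 annotated starts, Gabra4 held 12, and Gabra3 held 0 before each of its 2. The letters TATAAA began 30 bases before the first of the 3 annotated starts of Gabrb2. On both strands they were absent from the windows of its other starts and from the Gabra2 and Gabra5 windows. They were present on either strand in 12.4% of all windows. These are matches of letters and were not tested as sites.

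In the annotation of GRCm38 (GENCODE M21), Gabra2 spans chr5:70957597-71095849, Gabra4 chr5:71569749-71658308 and Gabrb1 chr5:71658113-72149037. Gabra5 spans chr7:57407672-57510059, Gabrb2 chr11:42419757-42629028, Gabrd chr4:155384980-155398112 and Gabra3 chrX:72432681-72656848. On chromosome 5, Gabra2 and its neighbour Gabrg1 were higher in the BLA while Gabra4 and Gabrb1 were not called.

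Training was compared within each region, CTA against taste control at 4 hr. None of the 7 subunits was called in the BLA, nor was any of 14611 genes tested with limma, of which 568 (3.89%) had an unadjusted p under 0.05. The log2 differences (CTA minus taste control) of the subunits ran from -0.93 for Gabrd to 0.45 for Gabra5, all with adjusted p of 0.999. In the GC none of the 7 and none of 15278 genes was called, with 573 (3.75%) at an unadjusted p under 0.05. There the differences ran from -0.45 for Gabrd to 0.06 for Gabra5.

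Gabrd had the lowest mean difference in both regions, though neither passed the adjustment over all genes. In the GC the 4 CTA libraries (38.1 to 49.95 TPM) all lay below the 4 taste control libraries (51.8 to 63.6 TPM), as did those of 1.19% of all genes (2.21% in either direction). The difference was -0.45 (SE 0.17, 95% interval -0.82 to -0.07), with an unadjusted limma p of 0.0240, an adjusted p of 0.9996 and an exact two-sided permutation p of 0.0286, the smallest possible. BLA levels averaged 5.26 ± 3.21 TPM in CTA libraries and 9.86 ± 2.74 TPM in taste controls (SD, n = 4), a difference of -0.93 (SE 0.55, 95% interval -2.13 to 0.26, unadjusted limma p = 0.116, exact permutation p = 0.114). The groups overlapped there, since CTA library 2 at 9.0 TPM exceeded 3 of the taste controls. No subunit was without overlap in the BLA, against 2.38% of all genes. Leaving out BLA CTA library 3, the lowest at 1.61 TPM, brought the BLA difference to -0.57.

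**Figure D4:**
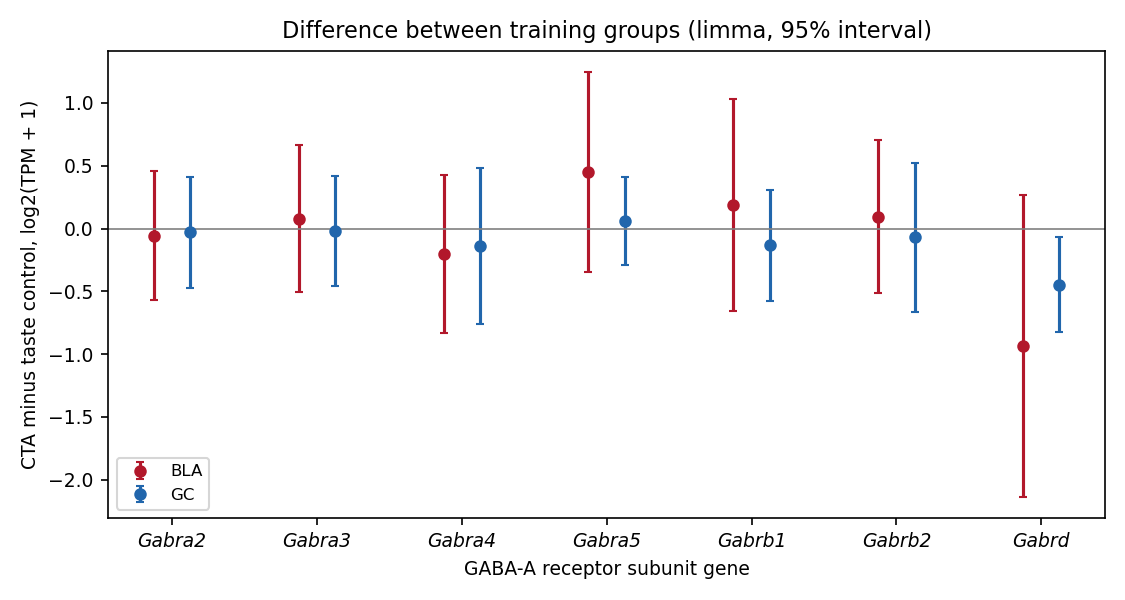
Difference between training groups (CTA minus taste control, log2(TPM + 1)) of each subunit in the BLA and in the GC, with 95% intervals from limma. The intervals include 0 except that of Gabrd in the GC (-0.82 to -0.07), whose adjusted p was 0.9996.

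For the remaining subunits the intervals of the training difference included 0. In the BLA, Gabra5 averaged 70.9 ± 27.3 TPM after CTA and 50.9 ± 16.3 TPM in taste controls (SD, n = 4), with a 95% interval of the log2 difference from -0.34 to 1.25. Gabra2 differed by -0.06 (95% interval -0.57 to 0.46) in the BLA and by -0.03 (-0.47 to 0.41) in the GC, so a change past 0.57 on the log2 scale in either direction lay outside both intervals. Gabrb2 differed by 0.10 (-0.52 to 0.71) and -0.07 (-0.66 to 0.52). The term for region by training, which asks whether the effect of training differed between BLA and GC, was called for none of the 7 and for none of 15191 genes (601, or 3.96%, at an unadjusted p under 0.05). The subunits ran there from -0.49 for Gabrd (95% interval -1.54 to 0.56) to 0.39 for Gabra5 (-0.46 to 1.24), with limma adjusted p of 0.9995.

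The shares of all 7 subunits overlapped between training groups in both regions. In the BLA, Gabra2 took 26.1% ± 3.47 after CTA and 28.2% ± 4.15 in taste controls, and Gabra5 12.5% ± 4.72 and 9.61% ± 3.97 (SD, n = 4). In the GC, Gabra2 took 7.82% ± 1.15 and 7.62% ± 0.520, and Gabra5 25.6% ± 2.75 and 23.5% ± 2.96. The share of Gabrd was 0.971% ± 0.702 and 1.78% ± 0.349 in the BLA and 6.32% ± 1.97 and 8.03% ± 0.663 in the GC. In the GC its share ranged from 4.70% to 8.70% after CTA and from 7.10% to 8.59% in taste controls, so the gap seen in its TPM was not there in its share of the 7.

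Some subunits varied together from library to library. With the 4 group means removed, log2 levels of Gabra4 and Gabrb2 correlated at r = 0.831 over the 16 libraries (0.859 in the BLA and 0.832 in the GC), and Gabra2 correlated with Gabrb2 at 0.647 and with Gabra4 at 0.644. Gabra5 and Gabrb2 had an r of -0.573 in the 8 BLA libraries and 0.710 in the 8 GC libraries. Gabrd followed none of these, with r of 0.05 with Gabra2 and -0.04 with Gabra4. These values describe libraries that share their amplification, handling and scaling within each library.

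Genes whose pattern over the 16 libraries was most like that of each subunit were sought among the 5495 genes of at least 30 TPM. For Gabra2 these were C1ql3 (r = 0.978), which encodes a secreted synaptic protein, and the calcium-binding protein gene Necab1 (0.969). For Gabra5 they were Sparcl1 (0.973), which encodes a secreted matrix protein, and the reelin adaptor gene Dab1 (0.960), and for Gabrd Zfp804a (0.948) and the neurturin receptor gene Gfra2 (0.948). For Gabrb2 they were the sodium-calcium exchanger gene Slc8a1 (0.969) and the RNA-binding protein gene Elavl2 (0.955), and for Gabra4 Ogfrl1 (0.955) and Arpp19 (0.910). Gabra3 (Cbx3, 0.806, and Ppp4r2, 0.805) and Gabrb1 (Snrnp200, 0.871, and Ppp5c, 0.839) had less similar companions. Group means were not removed here, so these r also carry the gap between the regions.

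Some of the other GABA-A subunit genes were compared in the same way. Gabrg1, a gamma subunit, was higher in the BLA, at 20.6 ± 8.54 TPM against 3.75 ± 1.64 TPM in the GC (SD, n = 8), a log2 difference of 2.13 (limma adjusted p = 0.000111), and the regions did not overlap. Gabrg3, another gamma subunit, was not called (38.0 ± 30.9 and 42.1 ± 19.3 TPM, limma adjusted p = 0.558). Gabre, Gabrq and Gabrr3 stayed at a mean of 3.01 TPM or less, and Gabra6, Gabrp, Gabrr1 and Gabrr2 below 1 TPM.

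Of 25 genes for proteins that anchor, move or modify GABA-A receptors, 2 were higher in the BLA, 6 were lower and 17 were not called, with a median log2 difference of -0.18 against -0.23 for all genes, of which 4.12% were higher and 15.2% lower. Hap1, which takes part in receptor recycling, was higher by 1.96 (62.2 ± 9.42 against 15.6 ± 4.47 TPM, SD, n = 8, limma adjusted p = 1.04e-06), and the membrane fusion ATPase gene Nsf by 0.46 (limma adjusted p = 0.000170). The 6 lower genes were less stable, since none of them was called under median-ratio scaling, where 4 of the 25 were higher. Among them were Plcl2 (-0.73, limma adjusted p = 0.00762), Nlgn2, an adhesion protein of inhibitory synapses (-0.54, 0.0186), and Shisa7 (-0.45, 0.0264). Gphn, the gene for the synaptic anchor gephyrin, measured 44.7 ± 10.2 and 45.9 ± 8.84 TPM (limma adjusted p = 0.905).

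Genes of GABA-B receptors, which act through G proteins, and of chloride transport were compared in the same way. Against 15.2% of all genes called lower and a median of -0.23, 3 of 5 GABA-B genes were lower in the BLA, with a median of -0.61, among them the receptor subunit gene Gabbr1 (-0.61, limma adjusted p = 7.72e-05) and the auxiliary subunit gene Kctd8 (0.108 against 2.41 TPM, -1.61, limma adjusted p = 0.000276), while Kctd16 (-1.39, limma adjusted p = 0.0478) was not called under any of the 3 other scalings. Of 6 chloride transport genes 5 were tested and 2 were lower, with a median of -0.50, the chloride exporter gene Slc12a5 (-0.39, limma adjusted p = 0.0173) and Clcn3 (-0.61, 0.0219), and neither was called under median-ratio scaling. None of these genes, nor of the other subunit genes named, was called between training groups in either region.

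Markers of other cells were measured beside the subunits. GABAergic neurons were represented by low levels of Gad1 (2.34 ± 3.58 TPM in the BLA and 5.13 ± 5.07 in the GC), Gad2 (20.4 ± 12.3 and 7.64 ± 6.77) and Slc32a1 (3.15 ± 3.56 and 1.33 ± 1.77; SD, n = 8). Over the list of 16 such genes the summed level was 2859 to 4494 TPM in the BLA and 4913 to 7897 TPM in the GC, most of it from Cck, and 2 of the 16 were at 0 in all BLA libraries. The sum thus mostly reflects that 1 gene, and the median of the gene means was 2.33 TPM in the BLA and 5.02 TPM in the GC. The summed level of 10 astrocyte genes was 232 to 336 TPM in the BLA and 314 to 592 TPM in the GC, mostly from Slc1a2, with Gfap at a mean of 0.458 and 3.18 TPM. That of 8 oligodendrocyte genes was 14.8 to 150 TPM in the BLA and 110 to 421 TPM in the GC, with Mbp at 41.3 ± 20.2 and 127 ± 46.8 TPM. For 10 genes of central amygdala and striatal neurons it was 26.6 to 128 TPM in the BLA and 138 to 235 TPM in the GC, with no overlap. It was 0.03 to 22.5 and 2.32 to 28.4 TPM for 6 genes of oligodendrocyte precursors, 1.97 to 69.6 and 10.3 to 57.6 TPM for 8 of microglia, and 0.65 to 23.3 and 3.19 to 26.4 TPM for 8 of endothelial and mural cells. The parts of these cells in the subunit levels were not tested. The same 4 subunits were called when TPM was rescaled without Thy1.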

How the data were processed

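RNA from sorted YFP+ neurons was amplified (NuGEN Ovation V2) and sequenced by the authors as single-ended reads, which they aligned to mm10 with TopHat (version not given in the sources used here). The authors deposited 1 table per region with TPM for each library. Strand use and the counting of reads in overlapping genes are not given in the sources used here. The authors' own columns of group means, fold-changes and p-values were not used. Depth per library is unknown, and the spread between libraries is the only measure of precision.

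limma 3.58.1 (R 4.3.3) was applied to log2(TPM + 1), for genes whose mean reached 1 TPM over the libraries compared, with a trend of the variance on the mean and Benjamini-Hochberg adjustment over all genes tested. A fold-change on this scale understates the change of low genes. For single genes, mean TPM was also put to an exact permutation test, two-sided. The limma fits were also run on simulated data with independent normal errors, unlike libraries that share amplification and scaling. No result given here rests on that run.

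The members, lists and tests were chosen with earlier results of these data known. Named were the 7 subunits, other GABA-A subunits of at least 1 TPM, up to 3 higher and 3 lower called genes with the smallest p of each other GABA list, marker genes, and the 2 genes of at least 30 TPM most correlated with each subunit. Some genes that this rule names are not reported here. Gphn and the subunit genes below 1 TPM fall outside this rule and were added after their values were seen.

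Alternatives were pseudocounts of 0.1 and 5, no filter or a mean of 5 TPM, median-ratio scaling, quantile normalization, TPM rescaled without Thy1, no variance trend, a block for the replicate number, array quality weights, another denominator of shares, and each library left out in turn. No source says whether BLA and GC libraries share mice. The labels number 4 libraries a group and tie no library to a mouse, so p-values measure the spread between libraries. Promoter windows were found for 6 of the 7 genes.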

Additional observations from a re-analysis of the deposited data

Results flagged for a closer look

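Subunit levels of single libraries were compared with the other 3 of their group. In 5 of 60 groups of 4, 1 library lay far from the others by Dixon's ratio of gap to range. For normally distributed values chance gives about 1 in 20, which need not hold for TPM near 0, such as those of Gabrr3 and Gabrq. The 60 include the GC groups of Gabrr3, in which every library was at 0 and none could stand apart. BLA taste control 3 stood apart for 3 genes, Gabra3 at 217.4 TPM (others 107 to 125), Gabrd at 13.94 TPM (others 8.17 to 8.91) and Gabrr3 at 18.14 TPM (others 0 to 0.42). Without this library the region difference of Gabra3 in taste controls, 0.21 with it, was -0.01 on the log2 scale, the training difference of Gabrd in the BLA was -0.77, and that of Gabrb1 was -0.02. GC taste control 1 stood apart for Gabrg3, at 81.5 TPM (others 25.9 to 32.5). BLA CTA 4 stood apart for Gabrq, at 19 TPM (others 0.01 to 2.46).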

How the results depend on the processing

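Over all 16 libraries, Gabra2, Gabra5, Gabrb2 and Gabrd kept their direction and their call between regions under each of 10 other settings and with each of 16 libraries left out, with ranges over the latter of 1.39 to 1.54, -1.68 to -1.43, -1.01 to -0.82 and -2.84 to -2.52. The number of subunits called was 4 throughout over all libraries, 3 to 4 in taste controls and 2 to 3 after CTA, and 0 in the training and region by training comparisons. The calls lost were those of Gabrb2 in taste controls and Gabra5 after CTA given above. Counts over all genes moved more, from 1203 to 677 at the lowest with 1 library left out in taste controls, and from 994 to 535 after CTA. Leaving out GC CTA library 2 gave 1 called gene, none of the 7, between training groups in the GC.

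Some differences that were not called changed sign. With median-ratio scaling Gabra4 in taste controls was 0.014 between regions, and with array quality weights Gabra2 and Gabrb2 were 0.013 and 0.030 between training groups in the GC. With 1 library left out, the region difference of Gabra3 in taste controls ran from -0.012 to 0.33. Training differences in the BLA ran from -0.21 to 0.10 for Gabra2, -0.044 to 0.30 for Gabra3, -0.020 to 0.43 for Gabrb1 and -0.089 to 0.26 for Gabrb2. In the GC they ran from -0.18 to 0.078 for Gabra2, -0.16 to 0.12 for Gabra3, -0.35 to 0.086 for Gabra4, -0.015 to 0.20 for Gabra5 and -0.26 to 0.12 for Gabrb2. Region by training ran from -0.18 to 0.13 for Gabra2, -0.039 to 0.31 for Gabra3, -0.29 to 0.15 for Gabra4 and -0.025 to 0.36 for Gabrb2. Apart from the cases in which fewer libraries entered, the cause was not tested.

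With all 19 subunit genes as the denominator, the shares in BLA and GC were 13.1% and 3.40% for Gabra2, 5.41% and 10.8% for Gabra5 and 0.663% and 3.16% for Gabrd. Deviations from the group means of same-numbered libraries correlated between -0.105 and 0.132. With the number as a block 750 and 642 genes were called between regions in taste controls and after CTA. Same-numbered libraries were most alike for 6 of 8 in the GC and 0 of 8 in the BLA between training groups, and for 2 of 8 (CTA) and 1 of 8 (taste control) between regions. In the GC the same-number correlations between training groups were all positive, from 0.042 to 0.132. Whether the numbers mark a pairing or a batch there was not tested. The block changed no other call of the 7 than that of Gabrb2 in taste controls (limma adjusted p = 0.0512). The depth of each library is unknown, so low values such as those of Gabrd in the BLA have a precision given only by 4 libraries a group.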
